A study of Mus musculus with 5 samples.

Results

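The E proteins are transcription factors that pair with MyoD, the muscle-determining factor, and the Id proteins limit that pairing. The genes described here are Id1, Id2 and Id3, which encode inhibitors, and Tcf3 and Tcf12, which encode partners. They were chosen by symbol from a deposited count table, and each symbol was found once, so that the set holds 5 of 11194 genes.

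MyoD is a basic helix-loop-helix (bHLH) protein and binds DNA as a dimer with an E protein. Tcf3 encodes the E proteins E12 and E47 through alternative exons, and Tcf12 encodes HEB. An Id protein has the helix-loop-helix but no basic region, so it pairs with E proteins and the pair does not bind DNA. Id genes are well known targets of bone morphogenetic protein (BMP) signalling, which acts through Smad proteins, and are held high in muscle precursors that have not yet differentiated.

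RNA bound by an anti-Staufen1 antibody was sequenced from skeletal muscle stem cells of the mouse, which the series describes as quiescent. Staufen1 is a double-stranded RNA binding protein, and the comparison asked which RNAs come down with it, with the knockout immunoprecipitate as background. There were 3 libraries labelled wild type (genotype Stau+/+) and 2 labelled knockout (genotype Stau-/-), all of them immunoprecipitates made the same way, each from 100 pg of RNA copied with oligo(dT) primers and read as paired ends of 101 bases. The labels give no age, sex, strain or allele, do not say how the cells were isolated, and do not say whether libraries came from separate animals. Any p-value here thus describes the spread among these libraries, and that spread may be technical.

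Library totals were 33846391 to 105473455 counts in the wild type group, and 9370244 and 3091302 counts in knockout 1 and 2. Both knockout libraries were thus less deep than any wild type library. Stau1, the targeted gene, had 116.4 ± 11.4 CPM in wild type (SD, n = 3) and 109.9 ± 1.19 CPM in knockout (SD, n = 2), so no loss of its RNA was detected under the knockout label (log2 fold change 0.08, edgeR adjusted p = 0.847), and groups are named by their labels throughout. CPM sets the count of a gene against the total of its library, after TMM scaling of the totals. Pax7, which defines muscle stem cells, was present in every library, at 180.7 to 263.2 CPM. All values are levels in the precipitate: fewer cells of a type, less RNA per cell and less recovery by the antibody cannot be told apart. Across all genes, 2.05% passed an adjusted p of 0.05 in edgeR's quasi-likelihood test, 118 upward in wild type and 112 upward in knockout. With total counts in place of TMM scaling, these were 93 and 143.

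Dimers of E proteins and MyoD bind the E-box, a DNA element with the letters CANNTG, and Id proteins act by keeping E proteins off it. The element is shown here as it occurs near these genes themselves, in the 250 bases upstream of the start site in RefSeq's promoter table (GRCm38.p6), where 4 of the 5 genes were matched with 6 windows, 3 of them of Tcf12. CANNTG reads the same on both strands, and 66.2% of the 32851 upstream windows of that table hold it, so a match is common. Capitals mark the matches, and each stretch is printed 5′ to 3′ on the gene's strand.
Id2 (chr12:25096271-25096300, minus strand): aatttgccacccCAGCTGggctctcgcccg
Tcf3 (chr10:80433672-80433701, minus strand): agtgggcgtggtCACTTGggggcgtggctt
Tcf12 (chr9:72112042-72112069, minus strand): agatgctgccCAGCTGcgtccccgtcgc
The form shared by the Id2 and Tcf12 stretches is in 13.0% of the windows. The Id3 window holds no CANNTG. These matches are letters only, and the counts of RNA do not bear on whether any factor binds there.

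None of the 5 genes passed the test between the libraries labelled wild type and knockout, at a background of 2.05% of all genes. An unadjusted p under 0.05 was found for 0 of the 5 in the same edgeR test, against 20.4% of all genes, and 0 of 5 passed with DESeq2 or with limma-voom, which called 8.04% and 0.197% of all genes. Fitted log2 fold changes, wild type over knockout, lay between -0.28 and 0.33. Their median absolute size was 0.27, beside 0.33 over all genes. The signs were 4 above 0 and 1 below, beside 5627 above and 5567 below over all genes. The libraries of both groups lay apart for 2 of the 5, Id3 and Tcf12, a share near the 38.4% of all genes. The gap for Tcf12, 40.3 CPM in knockout 1 against 40.4 CPM in wild type 3, was within counting error.

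**Figure D1:**
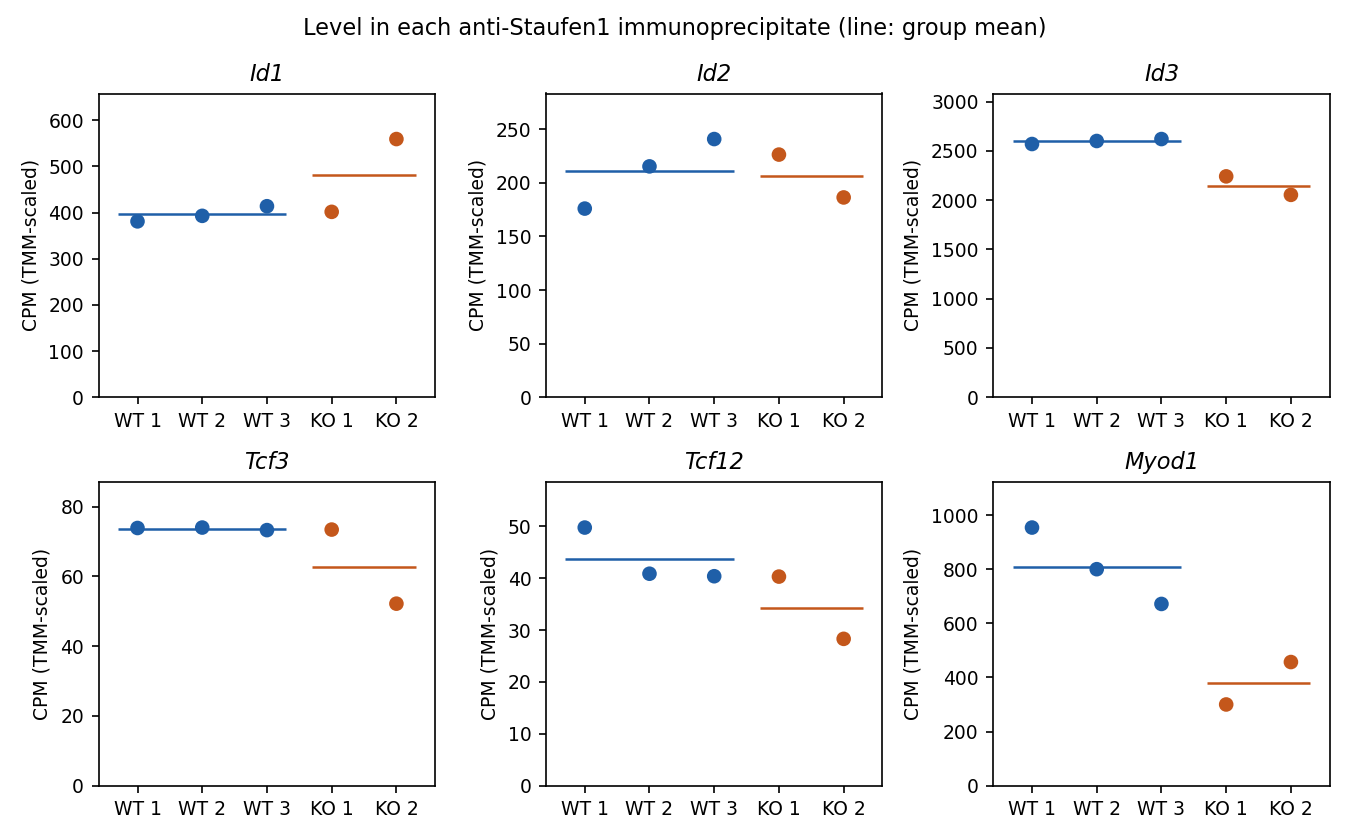
Level of Id1, Id2, Id3, Tcf3, Tcf12 and Myod1 in each library, in TMM-scaled CPM from 0, with wild type (WT) in blue, knockout (KO) in orange and lines at the group means. Id3 and Tcf3 are nearly level across the wild type libraries, knockout 2 is the highest library for Id1 and the lowest for Id3, Tcf3 and Tcf12, and Myod1 is lower in both knockout libraries.

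Id3 was by far the most abundant of the inhibitors. Id3 (ENSMUSG00000007872, chromosome 4, 136143497 to 136145755, plus strand, mm10, 4 exon intervals) had 2569, 2599 and 2619 CPM in wild type 1 to 3 and 2240 and 2053 CPM in knockout 1 and 2. The wild type libraries differed by less than their distance to either knockout library. The means were 2596 ± 25.4 CPM (SD, n = 3) and 2147 ± 132.6 CPM (SD, n = 2), a 1.21-fold difference. The log2 fold change, 0.27 with an SE of 0.17 and a 95% interval of -0.09 to 0.64, did not pass (edgeR adjusted p = 0.388). These levels rest on 6453 to 265565 counts a library, so counting error is small beside the difference between the group means. In knockout 2, the shallowest, the exact 95% counting interval was 2003 to 2104 CPM, below every wild type library.

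Id1 was the one gene of the 5 with a higher mean in the libraries labelled knockout. Id1 (ENSMUSG00000042745, chromosome 2, 152736251 to 152737410, plus strand, counted here as 1 exon interval) had 380.9, 392.9 and 413.7 CPM in wild type 1 to 3, and 401.5 and 559.3 CPM in knockout 1 and 2. Knockout 1 lay within the wild type range, and knockout 2 alone lay above it, with a counting interval of 533.4 to 586.0 CPM. The means were 395.8 ± 16.6 and 480.4 ± 111.5 CPM (SD, n = 3 and 2). The log2 fold change was -0.28 (SE 0.19, interval -0.68 to 0.13, edgeR adjusted p = 0.437), and it was -0.02 without knockout 2 and -0.50 without knockout 1.

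Id2 had no direction in these libraries. Id2 (ENSMUSG00000020644, chromosome 12, 25093801 to 25096092, minus strand, 3 exon intervals) had 176.0, 215.4 and 240.9 CPM in wild type 1 to 3, and 226.4 and 186.4 CPM in knockout 1 and 2. Both knockout libraries fell inside the wild type range, and wild type 1 was the lowest of all 5. The means were 210.8 ± 32.7 and 206.4 ± 28.3 CPM (SD, n = 3 and 2). The log2 fold change was 0.03 (SE 0.20, interval -0.40 to 0.45, edgeR adjusted p = 0.959), and its sign turned with total counts, where it was -0.01.

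Tcf3, whose E12 and E47 proteins are the classical partners of MyoD, was the steadiest of the 5 in the wild type group. Tcf3 (ENSMUSG00000020167, chromosome 10, 80409514 to 80433647, minus strand, 21 exon intervals) had 73.9, 74.0 and 73.3 CPM in wild type 1 to 3, and 73.4 and 52.2 CPM in knockout 1 and 2. The wild type values lay closer together than counting error, with a counting interval of 71.1 to 77.0 CPM in wild type 2. Knockout 1 was level with wild type, and knockout 2 alone was lower, on 164 counts with a counting interval of 44.5 to 60.8 CPM. The log2 fold change was 0.22 (SE 0.21, interval -0.24 to 0.68, edgeR adjusted p = 0.606) and was 0.01 without knockout 2. Counts over a whole gene do not separate E12 from E47.

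Tcf12 followed the same order in the knockout libraries. Tcf12 (ENSMUSG00000032228, chromosome 9, 71842688 to 72111871, minus strand, 24 exon intervals) had 49.8, 40.9 and 40.4 CPM in wild type 1 to 3, and 40.3 and 28.3 CPM in knockout 1 and 2. Knockout 1 lay just below the lowest wild type library, with a counting interval of 36.4 to 44.6 CPM that spans that library. Knockout 2 was the lowest, on 89 counts with a counting interval of 22.7 to 34.8 CPM. The log2 fold change of 0.33 (SE 0.25, interval -0.19 to 0.86) was the largest of the 5 and did not pass (edgeR adjusted p = 0.481). It was 0.12 without knockout 2 and 0.63 without knockout 1. Tcf12 spans the pseudogenes Gm18821 and Rpl15-ps2, and no RefSeq gene overlaps the other 4 genes.

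Knockout 2 carried most of what separated the groups for Id1, Tcf3 and Tcf12. It was also the shallowest library and the one with the highest level of muscle fibre markers. The 12 measured of 15 markers of muscle fibres summed to 3013 CPM there, against 651.3 CPM in knockout 1 and 802.6 to 939.3 CPM in wild type. None of the 12 was at 0 in any library. None was called in the unblocked edgeR test of all 5 libraries. Of the other fits of all 5 libraries, the one with the replicate number as a block called the most, 6 higher in knockout. The count was 2 after thinning to the shallowest library and 1 among genes with a mean of at least 10 CPM. More were called without knockout 1, where knockout 2 is the only library of its group and its spread is not measured. The part of fibre RNA or of depth in the values of Id1, Tcf3 and Tcf12 was not tested.

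**Figure D2:**
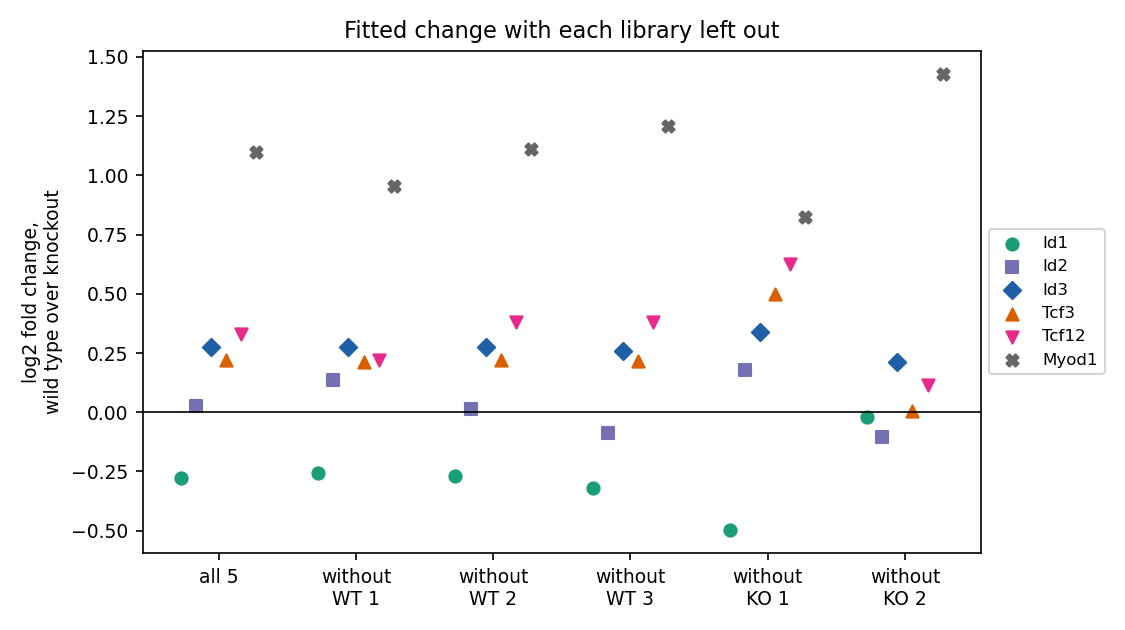
Fitted log2 fold change, wild type over knockout, of the 5 genes and Myod1 with all 5 libraries and with each library left out in turn. The 5 genes stay between -0.50 and 0.63, Id1 and Tcf3 move to -0.02 and 0.01 without knockout 2, and Myod1 stays between 0.82 and 1.43.

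Per length, the order of the 5 genes was the same in every library. RPKM divides CPM by the gene length in kilobases, which is 1160 bases for Id1, 1270 for Id2, 1791 for Id3, 4039 for Tcf3 and 15529 for Tcf12. Mean levels in wild type were 1449 ± 14.2 RPKM for Id3, 341.2 ± 14.3 for Id1, 166.0 ± 25.7 for Id2, 18.2 ± 0.0970 for Tcf3 and 2.81 ± 0.340 for Tcf12 (SD, n = 3). In the libraries labelled knockout the same genes had 1199 ± 74.1, 414.1 ± 96.2, 162.5 ± 22.3, 15.5 ± 3.72 and 2.21 ± 0.547 RPKM (SD, n = 2). No library of one gene overlapped a library of its neighbour in this order. Id3 ranked between 28 and 35 among 11194 genes in each library, and Id1 between 129 and 194. Tcf12 ranked between 7908 and 9287. The length of Tcf12 joins the exons of all its transcripts, so its level per length is a low estimate where shorter transcripts prevail.

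The makeup of the Id pool was led by Id3 in all libraries. By RPKM, Id3 made up 75.4, 74.1 and 72.8% of the sum of Id1, Id2 and Id3 in wild type 1 to 3, and 70.5 and 64.6% in knockout 1 and 2. Id1 made up 17.3, 17.3 and 17.8% in wild type, and 19.5 and 27.2% in knockout. The ratio of Id1 to Id3 was thus 0.235 ± 0.00767 in wild type (SD, n = 3) against 0.277 and 0.421 in knockout 1 and 2, and the groups did not overlap. Id3 alone also lay apart between the groups, as did 38.4% of all genes. An exact permutation test of 3 libraries against 2 cannot go below a one-sided p of 0.1, and no other test of the ratio was made.

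Summed Id RNA exceeded summed E protein RNA in every library. The sum of Id1, Id2 and Id3 was 1901, 1960 and 2009 RPKM in wild type 1 to 3 and 1775 RPKM in each knockout library, and that of Tcf3 and Tcf12 was 20.7 to 21.5 RPKM in wild type, 20.8 RPKM in knockout 1 and 14.7 RPKM in knockout 2. The Id sum was therefore 93.0 ± 4.23 times the E protein sum in wild type (SD, n = 3), and 85.5 and 120.4 times in knockout 1 and 2. Without division by length, the ratio of summed counts was 27.3 ± 1.83 in wild type (SD, n = 3), and 25.2 and 34.8 in knockout 1 and 2. Knockout 1 was below and knockout 2 above the wild type range, so the ratio had no direction between groups. With Id4 and Tcf4 added, a choice made after seeing the data, the RPKM ratio was 45.6 ± 3.10 in wild type and 41.8 and 52.6 in knockout 1 and 2.

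The remaining genes of both families did not pass either. Tcf4, the third E protein gene, had 285.8, 274.4 and 252.2 CPM in wild type 1 to 3, and 268.4 and 234.8 CPM in knockout 1 and 2 (log2 fold change 0.10, SE 0.18, edgeR adjusted p = 0.793). Per length it was at 22.1 RPKM in wild type, slightly above Tcf3, so that Tcf3 and Tcf12 are not the whole E protein pool. Id4, the least abundant Id gene, had 14.7 to 17.0 CPM in wild type and 14.1 and 11.1 CPM in knockout (0.28, SE 0.33, edgeR adjusted p = 0.676). Tcf4 and Id4 each overlap a long noncoding gene, Gm31439 and A330033J07Rik.

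The myogenic bHLH factors, which pair with these E proteins, differed more. Of 4 measured of 5 listed, 2 were called higher in wild type, at a background of 1.05% for that direction, 0 were lower and 2 did not pass, and Myf6 was not analysed here. Myod1 had 954.4, 800.5 and 672.0 CPM in wild type against 300.2 and 457.1 CPM in knockout, with no overlap, and a log2 fold change of 1.10 (SE 0.22) at an edgeR adjusted p of 0.0252. Msc, which encodes the bHLH repressor musculin, had 171.6 ± 35.2 against 85.9 ± 6.27 CPM (1.00, SE 0.22, edgeR adjusted p = 0.0350). Both calls failed when wild type 1, wild type 3 or knockout 1 was left out, and that of Msc also without knockout 2, where its edgeR adjusted p was 0.0865. The largest adjusted p values were 0.111 for Myod1 and 0.144 for Msc. Myf5 (0.64, edgeR adjusted p = 0.196) and Myog (1.19, edgeR adjusted p = 0.165) did not pass in the unblocked test of all 5 libraries. The replicate block called 3 of these 4 genes higher in wild type, and limma-voom called 0.

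**Figure D3:**
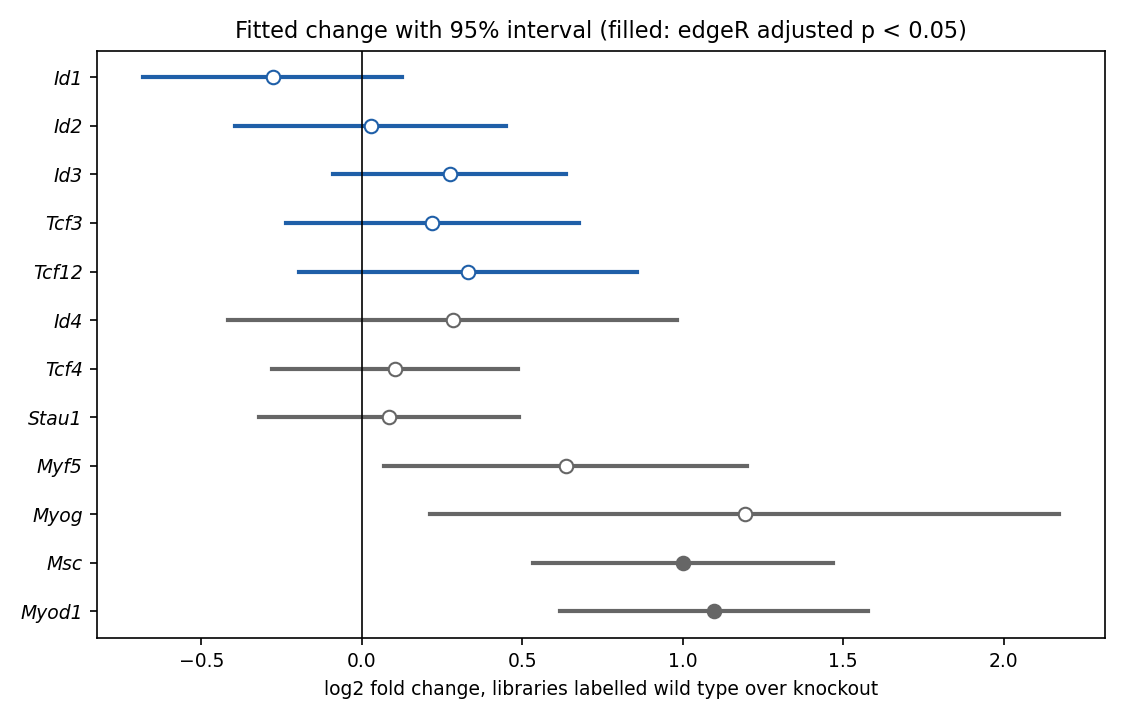
Fitted log2 fold change, wild type over knockout, with its 95% interval for the 5 genes (blue), for Id4, Tcf4, Stau1 and for the myogenic bHLH genes (grey), where filled points passed an edgeR adjusted p of 0.05. The upper ends for the 5 genes run from 0.13 for Id1 to 0.86 for Tcf12, and Myod1 is at 1.10.

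The 95% interval of Myod1 ran from 0.62 to 1.58, above the upper ends of Id1 and Id2 and overlapping the intervals of Id3, Tcf3 and Tcf12. The intervals of the 5 genes do not show equal recovery: they leave room for a wild type level up to 1.09-fold (Id1), 1.37-fold (Id2), 1.55-fold (Id3), 1.60-fold (Tcf3) and 1.81-fold (Tcf12) that of knockout. The difference between Myod1 and each gene was described within libraries and not tested. Id1, Id2 and Id3 together had 3.69, 4.54 and 5.54 times the RPKM of Myod1 in wild type 1 to 3, and 11.0 and 7.20 times in knockout 1 and 2. The groups did not overlap in this ratio. Myod1 alone also lay apart between the groups, as did 38.4% of all genes. Myod1 had 24.0, 20.6 and 17.5 times the RPKM of Tcf3 and Tcf12 together in wild type, and 7.80 and 16.7 times in knockout. Knockout 2 thus came close to wild type 3.

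**Figure D4:**
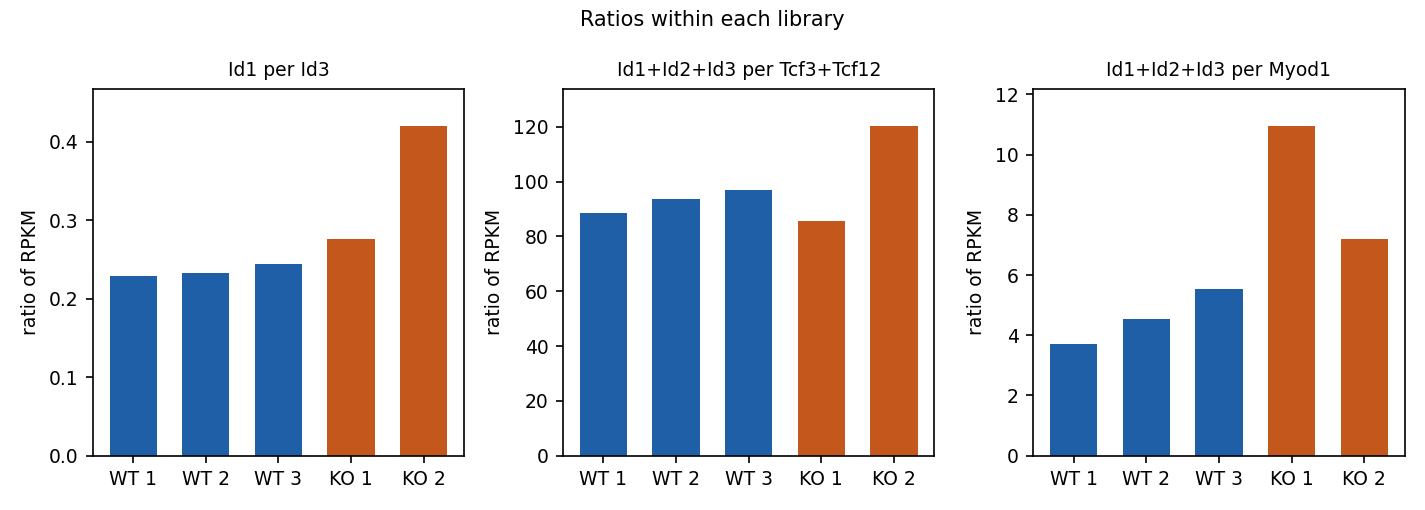
Ratios of RPKM within each library, from 0: Id1 per Id3, the Id sum per Tcf3 and Tcf12, and the Id sum per Myod1, with wild type (WT) in blue and knockout (KO) in orange. Id1 per Id3 and Id per Myod1 are higher in both knockout libraries than in any wild type library, whereas Id per E protein is lower in knockout 1 and higher in knockout 2.

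Markers of cell types also differed between the groups, and Id genes are known to be active in endothelium. Of 20 endothelial markers, all measured and none at 0 in any library, 7 were higher in the libraries labelled knockout (background 1.00% for that direction) and 13 did not pass, with a median log2 fold change of -0.77 beside 0.00 over all genes. Their sum was 1887 to 2719 CPM in wild type and 4248 and 3940 CPM in knockout 1 and 2. The most abundant were Fabp4, which binds fatty acids in capillary cells (355.8 ± 58.4 against 902.7 ± 202.3 CPM), the water channel Aqp1 (458.3 ± 79.8 against 847.1 ± 115.2 CPM) and Ly6c1 (189.5 ± 34.7 against 360.8 ± 27.0 CPM), and all 3 were called. Without wild type 3 the count was 1, without knockout 1 it was 2 and without knockout 2 it was 3, and it was 14 with DESeq2, 11 with the replicate block and 1 with limma-voom. Of 13 muscle stem cell markers, 3 were higher in wild type (background 1.05% for that direction) and 10 did not pass. Their sum was 6403 to 7006 CPM in wild type against 4266 and 4247 CPM in knockout, and their count of calls was 0 without wild type 1, wild type 3 or knockout 2 and 1 without knockout 1, 6 with DESeq2 and 0 with limma-voom. The part of endothelial RNA in the Id values was not tested.

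Of 4 red blood cell genes, 3 were higher in knockout by edgeR (background 1.00% for that direction) and 1 did not pass. Their sums were 215.5 to 295.1 CPM in wild type against 471.3 and 805.2 CPM in knockout 1 and 2. Their median log2 fold change was -1.19, and the count was 1 without wild type 3, 1 without knockout 2 and 0 with limma-voom. Of 13 fibro-adipogenic markers, 2 were higher in wild type (background 1.05%), 1 was higher in knockout (background 1.00%) and 10 did not pass. Without wild type 3 or knockout 1, 0 of them passed in either direction. The 2 fell to 1 without wild type 1, and without knockout 2 only 1 marker passed, in the direction of wild type. Of 6 Schwann cell markers, 1 was higher in knockout (background 1.00%). Among 11 markers of pericytes and smooth muscle and 9 of macrophages and leukocytes, 0 passed in the unblocked edgeR test of all 5 libraries. DESeq2 called 2 and 1 of them, and the replicate block called 1 of the macrophage and leukocyte markers.

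Among BMP pathway genes, which lie upstream of the Id genes, Bmp6 was the one that passed in the unblocked edgeR test of all 5 libraries. Of 28 measured of 37 listed, 1 was called higher in wild type, at a background of 1.05% for that direction, 0 were lower and 27 did not pass. Bmp6, a secreted ligand, had 105.6, 81.9 and 101.1 CPM in wild type 1 to 3, and 33.0 and 35.0 CPM in knockout 1 and 2. Every wild type library was above every knockout library, as for 20.4% of all genes. The log2 fold change was 1.50 (SE 0.22) at an edgeR adjusted p of 0.00964. The call was kept with each library left out, at log2 fold changes of 1.43 to 1.61, and was lost with limma-voom, where the adjusted p was 0.0933. A noncoding gene, 4930579J19Rik, overlaps Bmp6.

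The other BMP ligands measured, Bmp4 (0.21), Bmp1 (-0.22, a procollagen protease) and Bmp2, did not pass. Of 7 receptor genes 0 passed by edgeR: the co-receptor Eng, also an endothelial marker, was at -0.77 on the log2 scale (adjusted p = 0.0544), Acvr1 at 0.74 (adjusted p = 0.154) and Acvrl1 at -0.58 (adjusted p = 0.229). Eng and Acvr1 overlap the counted protein-coding genes Fpgs and Upp2. Of 3 Smad genes 0 passed, with log2 fold changes of 0.53 for the common Smad4, 0.32 for Smad5 and 0.20 for Smad1. Of 14 inhibitors 0 passed by edgeR, with a median of 0.35. DESeq2 called 3 inhibitors higher in wild type and 1 receptor higher in knockout. With edgeR, thinning, the filter on mean CPM and the replicate block each gave the receptor list 1 call and the inhibitors 2, 1 and 1 in that order, and 1 inhibitor was called without wild type 2. Closest to the threshold were Chrdl2, a chordin-like antagonist enriched in muscle stem cells (796.5 ± 57.6 against 486.4 ± 53.1 CPM, edgeR adjusted p = 0.0544), Twsg1 (0.81) and Fstl1 (0.60).

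Other genes of the E-box network gave 0 calls in every list in the unblocked edgeR test of all 5 libraries at full depth. Alternatives called up to 2 members in 5 of these lists: DESeq2 called 2 coactivators and 1 each of the bHLH partners, the Hes group, the MyoD repressors and the splicing factors. The replicate block called 1 in each of the latter 4, thinning 1 partner and 1 coactivator, and leaving out wild type 2 gave 1 MyoD repressor. Of 2 measured further bHLH partners of E proteins, Tcf15 was at -0.78 on the log2 scale (edgeR adjusted p = 0.0801) and Scx at 0.18. Among 6 Hes, Hey and Bhlhe repressors, Bhlhe40 was at 0.75 (edgeR adjusted p = 0.0721), Hey1 at 0.56 and Heyl, a Notch target, at 0.40. The 4 E-box competitors, which bind the same element, were all near 0, with Snai2 at -0.10, Zeb2 at -0.04 and Zeb1 at -0.02. Among 14 MyoD coactivators, the methyltransferase Carm1 was at 1.09 and Mef2c at -0.49. Among 7 MyoD repressors, the histone deacetylase Hdac5 was at -0.85 (edgeR adjusted p = 0.0878), Hdac4 at 0.23 and Suv39h1 at -0.31. Among 9 genes for Id stability and E protein cofactors, Ldb1 was at -0.53, Cbfa2t2 at 0.74 and Lmo4 at -0.33. The 3 splicing factors known to act on the exons that make E12 or E47 were split. Hnrnph1 was at -0.59, Hnrnpf at 0.61 and Ptbp1 at 0.56. Scx lies inside the counted protein-coding gene Bop1, and Carm1 and Ptbp1 overlap Yipf2 and Plppr3, which were counted too.

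The profiles of the 5 genes over the 5 libraries were compared with those of all other genes by the root mean square difference of centred log2 CPM, where 0 means the same profile. Id1 was nearest to Mrps23 (0.0289), Zfp142 (0.0380) and Zcchc17 (0.0381). Id2 was nearest to Nr6a1 (0.0349), Kars (0.0372) and Cecr2 (0.0492), and Id3 to Adgrl1 (0.0185), Jup (0.0274) and Tspan12 (0.0294). Tcf3 was nearest to Mrps27 (0.0218), Rab11fip3 (0.0238) and Chchd6 (0.0294), and Tcf12 to Cd164 (0.0272), Bicd2 (0.0326) and Dhrs4 (0.0367). None of these 15 genes was called, which their choice by likeness to uncalled genes largely fixed in advance. Among the 5 genes themselves the nearest pairs were Id3 with Tcf3 (0.117) and Tcf3 with Tcf12 (0.119), and the farthest was Id1 with Tcf12 (0.459). For no gene was another of the 5 closer than place 167 among the candidates, and 5 points leave many genes alike.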

How the data were processed

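Reads were handled with Trim Galore, STAR, Subread's featureCounts and edgeR on mm10, per the submitters' processing notes, with versions, annotation release and strandedness not given in the sources used here. The authors deposited unnormalised counts, 1 whole number for each gene and library, and the other column used gives gene length in bases. The table covers 11194 genes, 368 of them without a symbol, and 18 symbols turned into dates were restored through RefSeq. No gene's third-highest CPM was below 3.02, so low genes had been left out before deposit. Counts were tested with edgeR 4.0.16 under R 4.3.3: filterByExpr, TMM scaling, and a quasi-likelihood F-test of genotype, two-sided, with Benjamini-Hochberg adjustment across all genes and a threshold of 0.05. The test was checked on simulated data. A log2 fold change above 0 means higher in wild type. Alternatives were other scalings, DESeq2 1.42.0, limma-voom (limma 3.58.1), other filters, thinning, a replicate block and each library left out. With a knockout library left out, that group holds 1 library, and its spread is not measured. In the replicate block, wild type 3 shares its number with no knockout library. Exact Poisson intervals (95%) cover counting error only, since no molecular identifiers are named.

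Genes named in the text are the 5 genes, Myod1, Stau1, all measured genes of the 2 lists of other Id, E protein and myogenic genes, the 3 smallest p in each other pathway list, the 3 most abundant endothelial markers, and for each of the 5 genes the 3 nearest profiles, among genes with a symbol, a mean of at least 10 CPM and a standard deviation of log2 CPM at least 0.5 times that of the gene compared. Pax7, Bmp2 and the markers summed are named besides. A gene that the rule names and a sequence are not reported here. The genes and lists were chosen with earlier results of these data known. No paired analysis entered the main comparison, because nothing in the labels says that a replicate number marks a shared source.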

Additional observations from a re-analysis of the deposited data

How the results depend on the processing

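None of Id1, Id2, Id3, Tcf3 and Tcf12 was called under any of the 14 alternatives, where their 70 adjusted p values ran from 0.232 to 0.993 and 65 of 70 log2 fold changes kept their sign. The 5 that turned were those of Id2: -0.013 with total counts, -0.017 with limma-voom, -0.081 with the replicate block, and within a range of -0.10 to 0.18 with a library left out. For Stau1, 14 of 14 kept sign and side. Myod1 was not called with limma-voom (1.16, adjusted p = 0.0755), and ran from 0.82 to 1.43 with a library left out. Genes higher in wild type numbered 434 with DESeq2, 8 with limma-voom and 288 with the replicate block, and 11 to 176 with a library left out. Genes higher in knockout numbered 466, 14 and 324 in that order, 175 after thinning, and 23 to 172 with a library left out. The log2 Id per E protein ratio, -0.13, was -0.041 with Id4 and Tcf4 and ran from -0.37 to 0.12 with a library left out, and that of Id1 per Id3, -0.54, from -0.84 to -0.23. Of other named genes near 0, the sign turned for Scx (-0.054) and Zeb2 (0.078) with the replicate block, Snai2 (0.092) with limma-voom, and Zeb1 after thinning (0.022) and with the replicate block (0.021). With a library left out, Scx ran from -0.14 to 0.52, Bmp4 from -0.0084 to 0.47, Snai2 from -0.45 to 0.29, Zeb2 from -0.16 to 0.074 and Zeb1 from -0.046 to 0.013. The causes were not tested. Replicate numbers 1 and 2 are shared by the groups, and deviations of same-numbered libraries correlated at 0.0496 and 0.0401. The 2 knockout deviations mirror each other by construction, so these values cannot decide whether same-numbered libraries share a source. Depth limits Tcf12 and Tcf3 most, at 89 and 164 counts in knockout 2.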
